A study of Mus musculus with 6 samples.

Results

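The surfactant and lamellar body genes are 10 genes whose products make, store or recycle alveolar surfactant: Sftpa1, Sftpb, Sftpc, Sftpd, Abca3, Lamp3, Napsa, Slc34a2, Lpcat1 and Ctsh. They were chosen by name, and each was read from the array feature that carries its symbol alone. All 10 were measured, among 19946 genes in all, and each had 1 such feature. Lungs taken whole at E14.5 were profiled on Affymetrix arrays, 3 of mutant and 3 of control mouse embryos. Mutant embryos carried Shh-Cre with floxed alleles of Foxp1, Foxp2 and Foxp4, which encode forkhead transcription factors. Their genotype label writes Foxp1flox/flox 2 times beside Foxp4flox/flox, at the place where the series title has Foxp2. Control embryos carried Shh-Cre without a floxed allele in the label, and both groups were a mix of C57BL/6 and 129X1. The Cre comes from the Shh gene, which is active in the lung endoderm, so the mesenchyme, vessels and blood cells of these lungs are not its target.

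Surfactant is a film of phospholipid and protein that lowers surface tension in the air spaces. Alveolar type II cells build it, pack it into lamellar bodies, which are organelles related to lysosomes, and secrete it. Sftpc is switched on early in the distal tips of the branching lung, while most of the other genes reach high levels only late in gestation or after birth. Transcription of several of these genes depends on NKX2-1, the homeodomain factor of the lung and thyroid endoderm, and on forkhead factors of the FOXA group.

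Foxp2 was at 9.58 ± 0.03 in mutant lungs and 10.53 ± 0.01 in control lungs (SD, n = 3 each), and Foxp4 was lower as well, by 0.64 on the log2 scale. Foxp1 differed by -0.31 and did not pass the threshold (limma adjusted p = 0.0661). All levels are log2 values. Of 18 lung mesenchyme markers, 18 read above the median gene in controls, and Nkx2-1 read 9.25 ± 0.24 in mutants and 10.12 ± 0.04 in controls. Genes that are silent in one sex, 4 of them, read between 4.15 and 5.77 on the arrays of that sex. This range is a guide to the level of a gene that is off. Its upper part rests on Xist alone (5.51 and 5.77), since the Y-linked genes read between 4.15 and 4.96. By these genes 2 samples were male, mutant 3 and control 3. Mutant 1 stood apart in heart muscle genes, whose median over 14 genes relative to controls was 1.35 in mutant 1, -0.28 in mutant 2 and -0.22 in mutant 3.

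Of the 10 genes, 7 fell in mutant lungs, 0 rose and 3 did not pass (limma adjusted p under 0.05 over all genes tested). Over all genes, 3.83% fell and 3.84% rose, which is 7.66% in either direction. At an unadjusted limma p under 0.05, 8 of the 10 differed, against 19.8% of all genes. The median difference of the 10 genes was -0.49, and that of all genes was -0.01. In 8 of the 10 the highest mutant was below the lowest control, which 12.6% of all genes showed. The sizes ran from a near loss of Sftpc to no detectable difference in Sftpa1 and Sftpd. In RNA of whole lung, fewer cells of a type and less RNA per cell cannot be told apart. For any single gene an exact permutation test of 3 against 3 arrays cannot give a p below 0.1, so the calls rest on the fit across all genes.

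**Figure D1:**
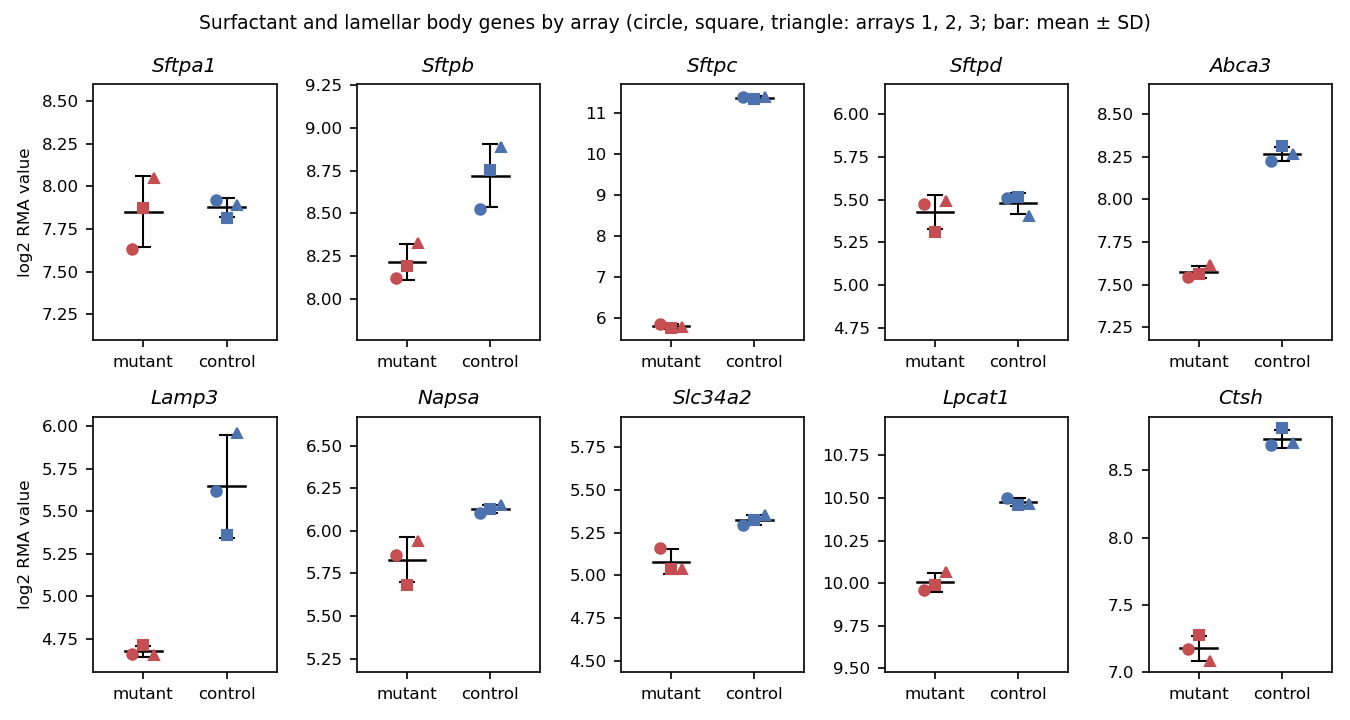
Log2 values of the 10 genes on each array, mutant lungs at the left of each panel and control lungs at the right, with the mean and SD of 3 arrays; every panel has its own axis range. The groups are apart in 8 panels and overlap in Sftpa1 and Sftpd, and Sftpc spans a far wider axis than the other genes.

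Sftpc encodes surfactant protein C, the small hydrophobic protein made as a membrane-spanning precursor. It read 5.86, 5.75 and 5.80 in mutants 1 to 3, against 11.40, 11.35 and 11.41 in controls 1 to 3. Each group was tight, and the mutant values lay at or just above the upper end of the range of silent genes, 5.77. The log2 difference was -5.58 ± 0.06 (SE, 95% confidence interval -5.71 to -5.45, limma adjusted p = 2.6e-09). This is 47.9-fold lower and a low estimate, since the mutant values lie near those of genes that are off. No gene of the 19946 had a larger fall.

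Sftpb encodes surfactant protein B, the other hydrophobic protein, without which lamellar bodies do not form and newborn mice cannot breathe. It read 8.12, 8.19 and 8.33 in mutants, against 8.52, 8.75 and 8.89 in controls. The groups did not overlap, but control 1 lay only a little above mutant 3. The difference was -0.51 ± 0.10 (SE, interval -0.74 to -0.28) or 1.42-fold (limma adjusted p = 0.0196). The call ended without control 2 or control 3 (adjusted p = 0.0848 and 0.0751). The intervals of Sftpc and Sftpb lie far apart, although both genes encode proteins of the same film. Features of different genes need not respond equally to a given change of RNA.

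Sftpa1 and Sftpd encode the collectins SP-A and SP-D, soluble lectins that bind microbes. Sftpa1 read 7.63, 7.87 and 8.05 in mutants, against 7.92, 7.81 and 7.89 in controls. The mutants spread to both sides of the controls, with mutant 1 lowest and mutant 3 highest. The difference was -0.02 ± 0.10 (SE, limma adjusted p = 0.939), and its interval of -0.26 to 0.21 leaves room for a small change either way. Sftpd read 5.48, 5.31 and 5.49 in mutants, against 5.51, 5.52 and 5.41 in controls, with an interval of -0.21 to 0.11 (adjusted p = 0.772). All 6 Sftpd values lay within the range of silent genes, though in the part set by Xist alone, so little room for a fall may be left.

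Ctsh had the second largest change of the 10. It encodes cathepsin H, an aminopeptidase of lysosomes and lamellar bodies that trims the surfactant protein B and C precursors, and it is made in many other cells. It read 7.17, 7.27 and 7.09 in mutants, against 8.69, 8.81 and 8.71 in controls. The groups were far apart and each was tight. The difference was -1.56 ± 0.07 (SE, interval -1.72 to -1.40) or 2.95-fold (limma adjusted p = 1.59e-05), and it was the 44th largest fall of all genes. Napsa encodes napsin A, an aspartic protease that cleaves the surfactant protein B precursor. It read 5.86, 5.68 and 5.94 in mutants, against 6.10, 6.13 and 6.15 in controls. All mutants lay below all controls, at a difference of -0.30 (interval -0.47 to -0.13) that missed the threshold narrowly (adjusted p = 0.0502). Without mutant 3 it passed, at -0.36 (adjusted p = 0.0389).

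The lamellar body membrane genes Abca3 and Lamp3 fell, and the phosphate transporter gene Slc34a2 passed only narrowly. Abca3, the ABC transporter that loads phospholipid into lamellar bodies, read 7.55, 7.56 and 7.62 in mutants, against 8.23, 8.31 and 8.27 in controls. Its difference was -0.69 ± 0.06 (SE, interval -0.82 to -0.57) or 1.62-fold (limma adjusted p = 0.000289). Lamp3, a membrane glycoprotein of lamellar bodies that is also found in mature dendritic cells, read 4.66, 4.71 and 4.66 in mutants, against 5.62, 5.36 and 5.96 in controls. Here the spread was in the controls (SD 0.30) and not in the mutants (SD 0.03), whose values lay within the range of silent genes. The difference was -0.97 ± 0.13 (SE, interval -1.28 to -0.66, adjusted p = 0.00402), or 1.96-fold. Controls 1 and 2 also lay within that range, in its upper part, so the size of this fall is uncertain. Slc34a2, the phosphate transporter that recovers phosphate released from surfactant lipid, read 5.16, 5.04 and 5.04 in mutants, against 5.29, 5.32 and 5.35 in controls. Both groups lay within the range of silent genes, in the part set by Xist alone. The difference of -0.24 (interval -0.38 to -0.11, adjusted p = 0.0465) was the smallest one that passed. Its call ended without mutant 2 (adjusted p = 0.0724), mutant 3 (0.12), control 1 (0.12), control 2 (0.16) or control 3 (0.182).

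Lpcat1 encodes the lysophosphatidylcholine acyltransferase that remodels phosphatidylcholine into the dipalmitoyl form, the main lipid of surfactant. It read 9.96, 9.99 and 10.07 in mutants, against 10.50, 10.46 and 10.46 in controls. Both groups were tight and apart, and the difference was -0.47 ± 0.06 (SE, interval -0.60 to -0.34) or 1.39-fold (limma adjusted p = 0.00194). Sftpc, Ctsh, Abca3, Lamp3 and Lpcat1 stayed past the threshold whichever single array was left out, with adjusted p up to 0.0233 in Lamp3.

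**Figure D2:**
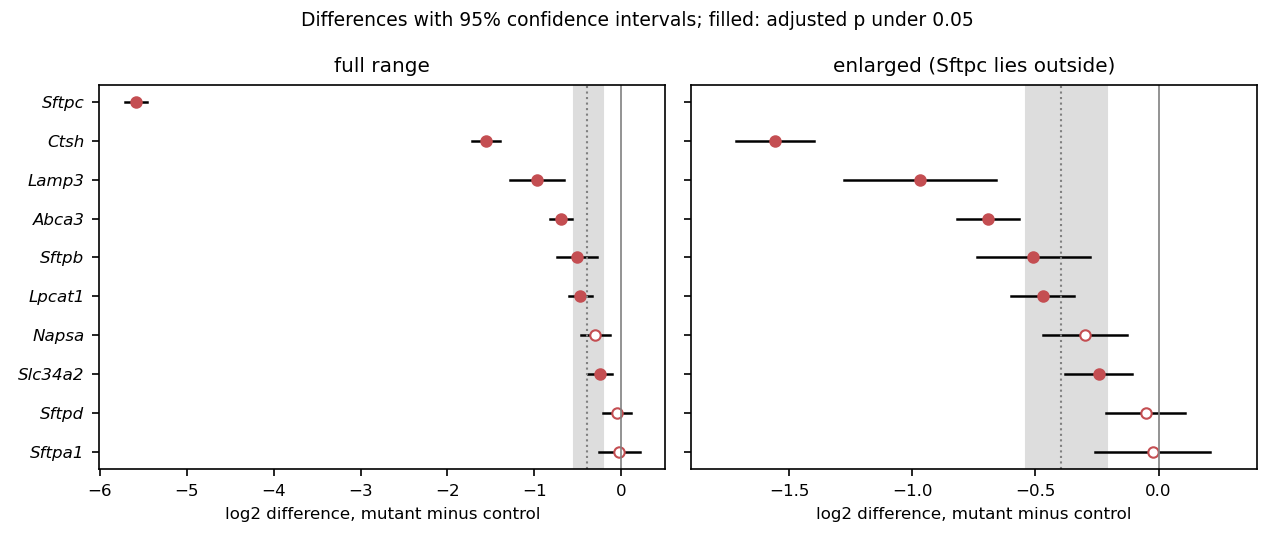
Log2 differences, mutant minus control, with 95% confidence intervals from the limma fit; the right panel enlarges the range without Sftpc. The grey band spans the quartiles of 30 genes shared by most epithelia (-0.54 to -0.21) with their median dotted (-0.40); the intervals of Sftpc, Ctsh, Lamp3 and Abca3 lie wholly below the band, and those of Sftpa1 and Sftpd cross 0.

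Promoter sequences are printed for the genes in which a searched word was found. They were chosen by that match and not by the size of the fall. RefSeq (assembly GRCm38.p6) gave an entry for 6 of the 10 genes, and Sftpc, Sftpd, Napsa and Ctsh had none. The 250 bases before the start were searched on both strands for the forkhead words TGTTTAC and TGTTTGC, the NKX2-1 word CAAGTG and the ETS word CAGGAAG, and matches are in capitals. The sequences run 5′ to 3′ on the strand of the gene and end at the base before the start. Those of Sftpb (chr6:72304360-72304609, plus strand), Lamp3 (chr16:19706366-19706615, minus strand) and Sftpa1 (chr14:41131538-41131787, plus strand) are these.
Sftpb: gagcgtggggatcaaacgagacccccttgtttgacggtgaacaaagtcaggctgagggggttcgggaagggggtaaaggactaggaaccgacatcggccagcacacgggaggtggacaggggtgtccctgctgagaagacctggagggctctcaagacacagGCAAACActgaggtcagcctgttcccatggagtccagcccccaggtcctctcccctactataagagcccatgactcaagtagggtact
Lamp3: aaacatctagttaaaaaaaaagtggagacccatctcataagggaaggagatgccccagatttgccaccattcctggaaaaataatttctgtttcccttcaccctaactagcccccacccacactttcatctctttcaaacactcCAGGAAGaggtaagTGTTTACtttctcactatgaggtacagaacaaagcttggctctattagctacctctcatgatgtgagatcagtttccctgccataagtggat
Sftpa1: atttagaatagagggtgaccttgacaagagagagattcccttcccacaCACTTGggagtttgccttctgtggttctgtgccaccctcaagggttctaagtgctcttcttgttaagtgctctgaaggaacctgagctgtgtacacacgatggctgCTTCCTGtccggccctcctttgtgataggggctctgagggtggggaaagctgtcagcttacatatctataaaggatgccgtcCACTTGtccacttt

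In Sftpb the capitals mark the reverse complement of TGTTTGC, from base -88 to base -82. In Lamp3 they mark CAGGAAG from -106 to -100 and TGTTTAC from -92 to -86. In Sftpa1 they mark the reverse complement of CAAGTG from -202 to -197 and from -14 to -9, and that of CAGGAAG from -96 to -90. No match overlapped another. Of all 32851 promoters of the RefSeq table, 3.17% held TGTTTAC, 4.30% TGTTTGC, 11.6% CAAGTG and 10.8% CAGGAAG. The windows of Abca3, Slc34a2 and Lpcat1, which also fell, held none of these words. Such a match describes letters and not binding.

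Since the 10 genes serve epithelial type II cells and Shh-Cre acts in the endoderm, they were also compared with other epithelial genes. Ctsh and Lamp3 are also made in other cells, which this reference does not cover. The reference was genes shared by most epithelia, such as keratins, claudins and epithelial splicing factors. Of 30 such genes, 16 fell and 0 rose. The median difference of the list was -0.40, with a range from -1.15 (Esrp2) to 0.01 (Spint1). The summed log2 level of the list ran from 244 to 252 in mutants and from 261 to 263 in controls, and no gene of it read below 4.82. Leaving out control 1, control 2 or control 3 gave 7, 6 or 9 falls. The array median of this list was then subtracted from every gene of that array. On this scale the median of all genes moved to 0.43 and that of the 10 genes to -0.05.

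Relative to the epithelial median, Sftpc remained at -5.15, with -4.88, -5.32 and -5.24 in mutants 1 to 3 from the control mean. Ctsh was at -0.91, -1.16 and -1.30 in the mutants, against -0.02, 0.07 and -0.05 in the controls. Lamp3 was at -0.33, -0.63 and -0.64 in the mutants, against 0.00, -0.30 and 0.29 in the controls. Abca3 was at -0.07, -0.40 and -0.30 in the mutants, against -0.01, 0.04 and -0.02 in the controls. These 4 genes had all mutants below all controls, which held for 1.08% of all genes, but in Lamp3 and Abca3 mutant 1 lay close to the lowest control. Sftpb, Lpcat1 and Napsa overlapped between the groups, with mean differences of -0.07, -0.04 and 0.14. Sftpa1, Sftpd and Slc34a2 lay above the controls in all mutants, at 0.41, 0.38 and 0.19, as did 85.6% of all genes. None of these genes rose before the subtraction, and Sftpd and Slc34a2 read within the range of silent genes in both groups.

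The limma fit on this scale called 3 of the 10 genes lower (Sftpc, Ctsh and Lamp3) and 2 higher (Sftpa1 and Sftpd), where it called 1.09% of all genes lower and 85.9% higher, or 87% in all. Before the subtraction, Sftpd in both groups and Lamp3 in the mutants read within the range of silent genes. The error of the subtracted median is common to all genes, which gave each gene the same SE of 0.15, so these calls are a poor guide to any single gene. Without control 3, 2 of the 10 genes were called, and without control 2, 3 were. Whether the count of epithelial cells differed was not tested.

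**Figure D3:**
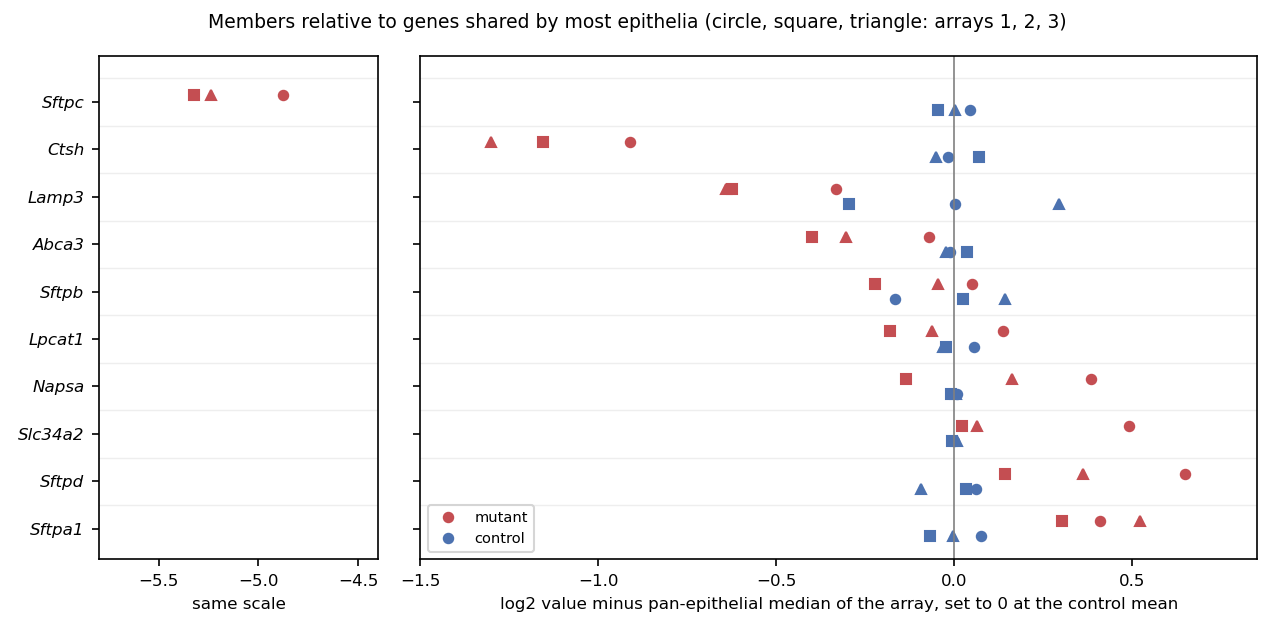
Log2 value of each gene minus the pan-epithelial median of its array, set to 0 at the control mean, with mutant arrays drawn above control arrays in each row and the far left of the axis in a panel of its own. Sftpc and Ctsh lie far below the controls, Sftpb and Lpcat1 overlap them, and Sftpa1 lies above them.

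Other genes of the surfactant pathway mostly did not pass, and neither did most genes of the array. Over all genes, 3.83% fell and 3.84% rose. Of 17 genes that process or sort surfactant proteins, 2 fell and 1 rose, and the median was 0.02. Pcsk6, a proprotein convertase, was at 8.18 ± 0.04 in mutants and 8.96 ± 0.03 in controls (SD, n = 3 each, limma adjusted p = 0.000145). Pgc, the pepsinogen that can also cleave the surfactant protein B precursor, was at 5.42 ± 0.11 in mutants and 6.15 ± 0.16 in controls (adjusted p = 0.00285). The related convertase Furin was at 0.28 (adjusted p = 0.0436), a call that ended without control 3 (adjusted p = 0.175) and in 4 of the other 5 omissions.

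Of 31 genes for the biogenesis of lysosome-related organelles, 2 fell and 0 rose, and the median was 0.03. Over all genes 7.66% were called in either direction, so these calls are read gene by gene and not as a trait of the list. The 2 were Myo5c, a myosin that moves secretory vesicles, at -1.27 ± 0.11 (SE, limma adjusted p = 0.000322), and Rab38 at -1.07 ± 0.09 (adjusted p = 0.000441). Rab38 is the small GTPase whose loss enlarges lamellar bodies in mice and rats. It read 6.33, 6.46 and 6.68 in mutants, against 7.63, 7.47 and 7.59 in controls, so the groups were well apart. Without mutant 2, 4 genes of this list fell. Genes of the AP-3 and BLOC complexes, which sort cargo to these organelles throughout the body, did not pass.

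Of 16 measured genes for secretion and reuptake, 2 rose and 0 fell (median -0.04). Adgrf5, the adhesion receptor that holds back surfactant secretion in the mature lung and is also made by endothelium, was at 9.31 ± 0.04 in mutants and 8.69 ± 0.09 in controls (SD, n = 3 each, limma adjusted p = 0.00114). The SNARE gene Stx3 was at 0.31 (adjusted p = 0.0129) and no longer passed without control 2 (0.0716) or control 3 (0.0713). Of 33 measured genes of phospholipid synthesis, 3 rose and 1 fell (median 0.04). The desaturase gene Scd1 was at 0.60 ± 0.07 (SE, adjusted p = 0.00228), and the elongase gene Elovl6 at 0.57 ± 0.06 (adjusted p = 0.000852). Lpin1 was at 0.28 (adjusted p = 0.0382), and its call ended without control 3 (adjusted p = 0.149) and in 4 of the other 5 omissions. Gpam, the glycerol-3-phosphate acyltransferase gene of mitochondria, was the one that fell, as Lpcat1 did, at -0.26 (adjusted p = 0.0498). Its call ended without control 2 (adjusted p = 0.194) and in 4 of the other 5 omissions. Without control 1, control 2 or control 3 the list had 2 calls, both rises.

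Of 35 regulators linked to surfactant gene transcription, 3 fell and 0 rose, and the median was -0.02. Over all genes 3.83% fell and 7.66% were called in either direction, so the count is not read as a trait of the list. Nkx2-1 read 8.98, 9.32 and 9.44 in mutants, against 10.12, 10.16 and 10.09 in controls (-0.88 ± 0.11, SE, limma adjusted p = 0.0026). Foxa2, a forkhead factor of the endoderm, read 7.31, 7.01 and 6.93 in mutants, against 7.85, 8.18 and 8.03 in controls (-0.94 ± 0.12, adjusted p = 0.00258). Etv5, the ETS factor that maintains type II cells in the adult lung, was at -0.87 ± 0.11 (adjusted p = 0.00294). These 3 falls are each far smaller than that of Sftpc. Their estimates are larger than that of Sftpb, but each of their 95% confidence intervals overlaps the interval of Sftpb. The list had 5 falls without mutant 1 and 6 without mutant 3.

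Relatives of the 10 genes moved in both directions. Of 32 measured paralogs, 5 rose, 4 fell and 23 did not pass (median -0.05). Among the cathepsins, Ctse, the gastric aspartic protease, was at 5.99 ± 0.06 in mutants and 7.93 ± 0.33 in controls (SD, n = 3 each, limma adjusted p = 0.000214). Ctsf was higher, at 0.72 ± 0.09 (SE, adjusted p = 0.00201). Among the ABC transporters, Abca9 was at 0.63 (adjusted p = 0.0475), a call that ended without control 3 (adjusted p = 0.177) and in 4 of the other 5 omissions. The other called ABC transporters were Abca5 (0.51), Abca8a (0.47) and Abca8b (0.32), which rose, and Abca13 (-0.34), which fell. Abca5 and Abca13 kept their calls whichever single array was left out, and Abca8a and Abca8b did not. Without control 1 and without control 3, 5 paralogs were called.

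Whether mature alveolar type I or type II cells were present in these E14.5 lungs was not tested. Genes listed as markers of alveolar type II cells beyond the 10 genes fell in 9 of 22 and rose in 2, with a median of -0.21. Of these 22 genes, 11 read above the median gene in controls. Muc1, a membrane mucin, was at 5.64 ± 0.12 in mutants and 9.04 ± 0.16 in controls (SD, n = 3 each, limma adjusted p = 2.51e-06). Dram1, a lysosomal membrane protein gene, was at -2.47 ± 0.07 (SE), and the anion transporter gene Slc26a9 at -1.97 ± 0.10. Cxcl15, a chemokine gene of the lung epithelium named here with its value known, was higher. It read 8.92, 9.35 and 8.71 in mutants, against 7.39, 7.30 and 7.47 in controls (adjusted p = 0.000537). Type I cell markers fell in 11 of 20 and rose in 1 (median -0.43), led by the tight junction gene Cldn18 (-4.77 ± 0.15), the sodium channel subunit gene Scnn1g (-2.31 ± 0.06) and the anchoring protein gene Akap5 (-1.66 ± 0.09).

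**Figure D4:**
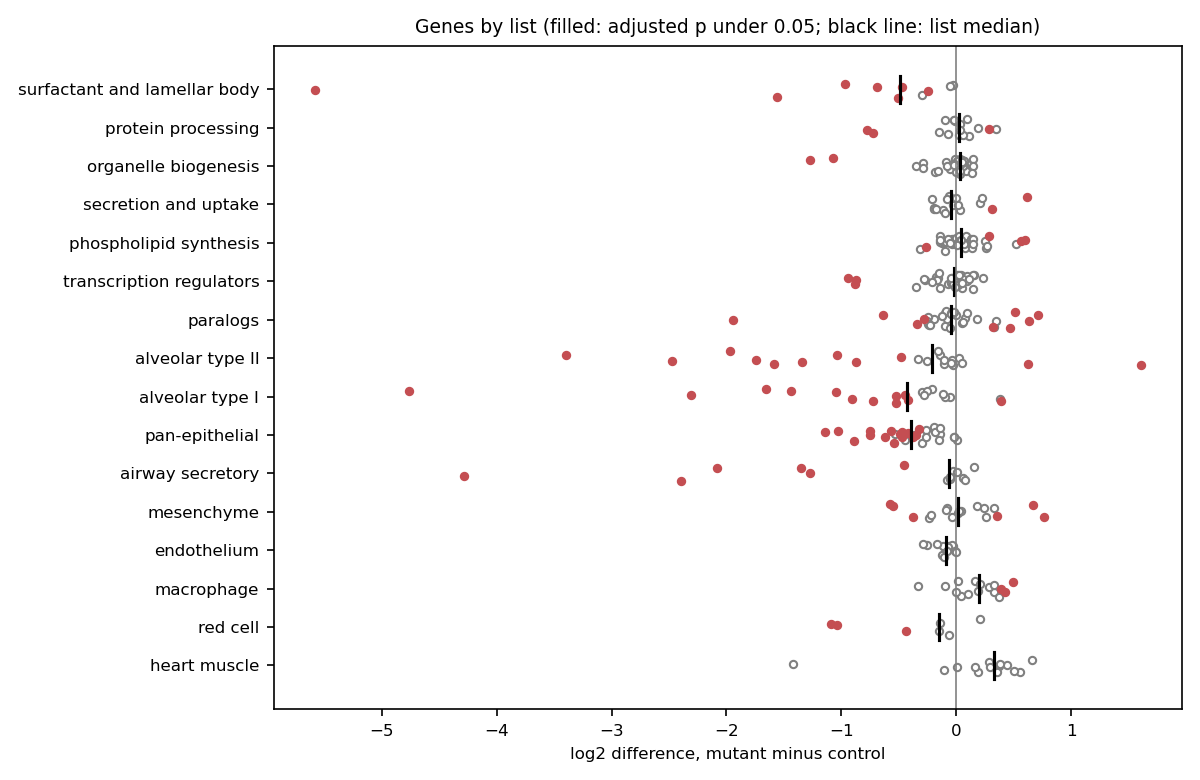
Log2 differences, mutant minus control, of the genes of each list, filled where the limma adjusted p was under 0.05, with the list median as a black line. The surfactant list (median -0.49) sits below the other surfactant pathway lists, whose medians lie between -0.04 and 0.04. The alveolar type I (-0.43) and pan-epithelial (-0.40) lists sit almost as low as the surfactant list. Sftpc is the leftmost point.

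Markers of other cells moved in both directions. Airway secretory markers, another epithelial class, fell in 6 of 14 and rose in 0, with a list median of -0.07, and the count was 6 whichever single array was left out. Only 4 of the 14 read above the median gene in controls, so this list median rests mostly on dim genes. The largest of the 6 falls were in Aldh1a7 (-4.28 ± 0.18, SE), the claudin gene Cldn10 (-2.40 ± 0.21) and Sox2, the factor of the proximal airway (-2.08 ± 0.17, limma adjusted p = 0.000297). Of 20 measured genes of neighbouring foregut organs, 2 rose and 1 fell, led by the thyroid and kidney factor gene Pax8 at 1.10 (adjusted p = 0.000413). Only 2 of the 20 read above the median gene in controls. Macrophages also express Ctsh and clear surfactant, and of 16 macrophage genes 3 rose and 0 fell (median 0.20), with Adgre1 at 0.49 (limma adjusted p = 0.0209). Their summed level was 116 to 119 in mutants and 113 to 116 in controls. Leaving out control 1 or control 2 left 0 of these calls, and leaving out control 3 left 1. Of 14 endothelial genes, 0 passed by limma and 2 had an unadjusted p under 0.05, the closest being Erg at -0.29 (adjusted p = 0.0521), and 1 fell without mutant 2 and 1 without mutant 3. Of 18 mesenchymal genes, 3 rose and 3 fell (median 0.02), and 1 was called without control 1, control 2 or control 3. Of 7 measured red cell genes, 3 fell (median -0.15), among them the anion exchanger gene Slc4a1 at -1.09 (limma adjusted p = 0.00507) and the haem synthesis gene Alas2 at -1.04 (adjusted p = 0.00674), with sums of 58.7 to 60.5 in mutants and 61.2 to 65.2 in controls. Of 14 heart genes, 0 passed by limma and 0 had an unadjusted p under 0.05, with sums of 96.5 to 122 in mutants and 102 to 103 in controls. Without mutant 1, 4 heart genes fell and 7 of the 10 surfactant genes still fell. The part of these cells in the surfactant gene differences was not tested.

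The genes whose profile over the 6 arrays was closest to that of Sftpc, by root mean square distance after setting each control mean to 0, were Cldn18 (0.61 log2 units away), the aldehyde dehydrogenase gene Aldh1a7 (0.96) and Tinag (1.16). They differed by -4.77, -4.28 and -3.95, each a smaller fall than that of Sftpc. The mean profile of the 7 genes that fell was closest to Krt7 (0.05), Nexmif (0.08) and Irx2 (0.10). That mean is pulled down by Sftpc.

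The protein-coding genes next to the 10 on the chromosome were looked at after the values were seen. Of 19 such neighbours 16 were measured, of which 4 fell, 0 rose and 12 did not pass. Those 12 ran from -0.26 (B3gnt5, beside Lamp3) to 0.20 (Atoh8, beside Sftpb), and they include every measured neighbour of Sftpb, Abca3, Lamp3, Lpcat1 and Ctsh. Sftpc lies between Bmp1 and Lgi3. Lgi3, a secreted protein gene that also marks type II cells, read 8.18, 8.48 and 8.88 in mutants, against 10.05, 10.14 and 10.10 in controls, a difference of -1.58 ± 0.15 (SE, limma adjusted p = 0.000738). Bmp1, a metalloprotease gene, was at -0.35 (adjusted p = 0.016) and no longer passed without control 3 (adjusted p = 0.0814) or control 2 (0.081). Sftpa1 lies on the same chromosome beside Mat1a, the liver-type methionine adenosyltransferase gene. Mat1a read 5.18, 5.38 and 5.59 in mutants, against 7.30, 6.97 and 6.96 in controls (-1.70 ± 0.13, adjusted p = 0.000201), while Sftpa1 itself did not change detectably. Mbl1, the mannose-binding lectin gene between Sftpa1 and Sftpd, was at -0.12 (adjusted p = 0.342). Beside Slc34a2, Sel1l3 was at -0.58 (adjusted p = 0.0122), a call that ended without control 1 (0.0581), control 2 (0.0554) or control 3 (0.05).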

How the data were processed

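RNA of 6 lungs was measured on single-colour arrays, 3 embryos per group per the series' design text. The deposited table holds log2 values, and the submitters' processing notes name RMA, oligo and limma, without versions or settings. Values after RMA flatten near background, which understates the changes of dim features. The values carry no detection calls, and the 3 arrays per group set the precision. Depth does not apply to arrays.

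Of 35556 features, 21797 carry a single gene symbol in the platform annotation, and 21706 of these matched RefSeq by Entrez identifier. The feature with the highest mean over the 6 arrays represented each gene, which left 19946. Groups were compared with the two-sided moderated test of limma 3.58.1 (R 4.3.3), fitting genotype alone, with Benjamini-Hochberg adjustment over all genes and a threshold of 0.05. The fit was tested on simulated data. The 10 genes and the 16 other lists (336 of 351 listed genes measured) were chosen with earlier results of these data known. Named were the 10 genes, all regulators that passed, and genes chosen from the up to 3 called ones of each other list with the largest difference (the smallest p where none passed). Gpam, Cxcl15 and the called ABC transporters other than Abca9 were named outside this rule, with their values known. Alternatives covered normalization, the dim genes, the features tested, moderation, array weights (statmod 1.5.0), replicate number, embryo sex, single arrays left out and thresholds.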

Additional observations from a re-analysis of the deposited data

How the results depend on the processing

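Of the 7 genes that fell, Sftpc, Ctsh, Abca3, Lamp3 and Lpcat1 kept their direction and their call under every alternative that tested them (14 in Lamp3, 15 in the other 4). Sftpb lost its call when all features were tested (adjusted p = 0.0691) and without control 2 or control 3, and Slc34a2 under 8 of 14 alternatives. Napsa passed under 6 of 14. Sftpa1 changed sign with array weights (0.0277) and without mutant 1 (-0.124 to 0.0848 over single arrays left out), and Sftpd without mutant 2 (-0.0878 to 0.00564), none with a call. The count of the 10 genes that fell was 5 to 8 under the other normalizations, filters and models and 5 to 7 without single arrays, but 4 when at least 1.5-fold was also required, by construction. The count over all genes was 1528, and it was 828 with all features tested, 549 at 1.5-fold and 774 to 1745 without single arrays. Calls among the genes of the other lists ran from 52 to 87 without single arrays. Relative to the epithelial median, 3 genes were called with the dimmest genes left out, which removed 4 of the 10 genes, 2 at 1.5-fold, and 2 to 6 without single arrays. A score centred per gene, added after seeing the data, gave 6. For the other changes the cause was not tested. With the replicate number as a block, 1137 genes and 6 of the 10 were called. Same-numbered arrays did not deviate together (correlations of -0.07, 0.05 and 0.15), so the numbers were not taken as pairs. Sftpd, Slc34a2 and Lamp3 lie near background, which limits any fall there.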
